A study of Mus musculus with 6 samples.

Results

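The 34 genes described here are transcripts associated with astrocytes in mouse brain, and not all of them are specific to astrocytes. The groups are glutamate uptake, ion and amino acid transport, gap junctions, water channels, metabolism, receptors, secreted proteins and reactive filaments. The genes were taken by symbol from gene tables of the suprachiasmatic nucleus (SCN), the hypothalamic clock centre, and all 34 were found among the 17645 genes listed. The tables come from 3 libraries titled r1r2V (replicates 1, 4 and 5) and 3 titled V (replicates 2, 3 and 4), all from female C57BL/6 mice killed in the dark at zeitgeber time 12 to 14 hours. Each library held pooled RNA of 2 SCN, punched by needle from frozen sections, and whether the pools came from separate animals is not stated, so p-values measure only the spread between these samples. From the series title, r1r2V was read as a knockout, restricted to GABAergic neurons, of the REV-ERB genes Nr1d1 and Nr1d2, and V as its control. The sources used here do not give the deleted exons, the Cre driver, any allele that both groups carry or the age of the mice.

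Astrocytes take up the glutamate and potassium that neurons release, convert glutamate to glutamine, and are joined to one another by gap junctions. Their end-feet cover blood vessels and carry water channels. In the SCN they hold a circadian clock of their own, and their control of extracellular glutamate is known to influence the rhythm of the neurons around them. REV-ERB proteins are transcriptional repressors of the clock, and the series title places their knockout in GABAergic neurons.

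Total expected counts ran from 15729603 to 17780928 per library. Nr1d1 had 196, 157 and 147 CPM (counts scaled to the size of the library) in the libraries labelled r1r2V, against 56.7, 62.5 and 57.0 CPM in those labelled V. Nr1d2 had 229, 275 and 222 CPM in the libraries labelled r1r2V, against 177, 179 and 168 CPM in those labelled V. Neither targeted transcript was lower in the libraries labelled as the knockout, so every direction here rests on the titles. The spread was also wider within r1r2V than within V: 71.6% of the 14438 genes tested had the larger SD in r1r2V. In bulk tissue, fewer cells of a type and less RNA per cell cannot be told apart.

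None of the 33 astrocyte genes tested passed, where 0.416% of all genes tested did. The test was the quasi-likelihood test of edgeR, with p adjusted over all genes by the Benjamini-Hochberg method and a threshold of 0.05. The median log2 fold change of the 33 genes was 0.005, against 0.009 over all genes tested, with 17 positive and 16 negative values between -0.27 and 0.28. On the linear scale the fitted ratios ran from 0.83-fold (Ndrg2) to 1.22-fold (Gjb6). The 95% interval lay within 1.5-fold either way for 32 of the 33 genes (80.3% of all genes tested). The 33 genes were more abundant, with a median of 153 CPM against 27.8 CPM over all genes tested. Their median standard error was smaller (0.082 against 0.097), while their median absolute log2 fold change was not (0.106 against 0.090). At an unadjusted p under 0.05 there were 3 of 33, namely Ndrg2, Gjb6 and Htra1 (7.58% of all genes tested). DESeq2 called 1, Ndrg2 (0.755% of the genes it tested), and limma on FPKM values called 0. The exception to the 1.5-fold bound was Cd44, a low-level gene whose interval reached 0.75 on the log2 scale. Lcn2 failed the filter on low counts and was not tested.

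Promoter sequence is shown for 4 members: Ndrg2 and Gjb6, the members with the smallest p, Cbs, whose window holds an E-box, and Gfap, the classical astrocyte filament gene. Each run is the 250 bases before a RefSeq transcription start (GRCm38.p6), read along the gene's strand. Capitals mark AGGTCA, the core sequence that REV-ERB and related nuclear receptors bind, on either strand (TGACCT on the reverse), and CACGTG, the E-box bound by CLOCK and BMAL1.
Ndrg2, chr14:51913489-51913738, minus strand: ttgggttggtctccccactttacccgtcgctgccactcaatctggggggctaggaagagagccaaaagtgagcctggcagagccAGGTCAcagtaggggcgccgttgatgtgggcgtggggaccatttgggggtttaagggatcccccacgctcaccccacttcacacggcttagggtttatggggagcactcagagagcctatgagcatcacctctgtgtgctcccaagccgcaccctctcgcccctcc
Gjb6, chr14:57133612-57133861, minus strand: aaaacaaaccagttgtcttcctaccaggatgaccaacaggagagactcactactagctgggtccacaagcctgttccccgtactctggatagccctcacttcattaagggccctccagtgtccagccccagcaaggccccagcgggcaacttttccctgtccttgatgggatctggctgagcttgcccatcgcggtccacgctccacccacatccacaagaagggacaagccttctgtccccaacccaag
Cbs, chr17:31637206-31637455, minus strand: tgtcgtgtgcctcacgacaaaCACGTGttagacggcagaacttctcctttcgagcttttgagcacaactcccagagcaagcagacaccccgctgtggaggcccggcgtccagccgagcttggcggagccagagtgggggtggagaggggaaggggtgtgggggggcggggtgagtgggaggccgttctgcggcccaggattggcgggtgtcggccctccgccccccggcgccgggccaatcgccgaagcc
Gfap, chr11:102897201-102897450, minus strand: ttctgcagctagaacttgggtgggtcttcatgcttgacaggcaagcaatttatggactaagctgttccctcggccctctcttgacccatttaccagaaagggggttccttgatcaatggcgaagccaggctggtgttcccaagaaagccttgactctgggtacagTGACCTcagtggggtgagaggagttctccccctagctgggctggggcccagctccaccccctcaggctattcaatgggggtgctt

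The Ndrg2 run belongs to one of 3 annotated starts of that gene and holds AGGTCA 166 bases before the start. The other starts of Ndrg2 had neither motif from 250 bases before to 50 after. The Gfap run holds it on the reverse strand 85 bases before the start, the Cbs run holds CACGTG 229 bases before the start, and the Gjb6 run holds neither. Over windows from 250 bases before to 50 after the start, which could be matched for 29 of the 34 members, AGGTCA occurred in 8 of 37 member windows (21.6%), against 16.3% of all 32851 RefSeq promoter windows. The 8 genes were Acsl6, Aldh1l1, Cst3, Gfap, Glul, Ndrg2, Slc1a2 and Slc4a4. CACGTG occurred in 3 of 37 member windows (8.11%), those of Cbs, Ntsr2 and Ppp1r3c, against 7.15% of all windows. No member had both motifs, and a match is a description of the letters only. Atp1b2, Sox9, Clu, Sparcl1 and Aqp4 had no window.

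Per length of transcript, the astrocyte genes ran from the 5.7 percentile (Lcn2) to the top (Cst3) of all genes tested, by their V means. Levels between genes are given in FPKM, the authors' fragment values scaled by transcript length and library size. Cst3, which encodes the secreted protease inhibitor cystatin C, was highest at 2879 ± 99.4 FPKM in r1r2V and 2661 ± 159.7 FPKM in V (SD, n = 3 each). Next came Ndrg2, Sparcl1, Clu, Glul and Aldoc, whose V means lay between 429 and 742 FPKM. Sox9, a transcription factor of the glial lineage, stood at 7.81 ± 0.593 FPKM in r1r2V and 7.90 ± 0.380 FPKM in V. Only Cd44, a hyaluronan receptor, and Lcn2, the gene of lipocalin 2, were lower. Down this order, 17 of the 33 steps from a gene to the next had V ranges that did not overlap, among them Cst3 above Ndrg2. At the other 16 steps, such as Ndrg2 and Sparcl1, the V ranges overlapped. Within each library, however, Sparcl1 stood above Ndrg2 in r1r2V and below it in V.

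**Figure D1:**
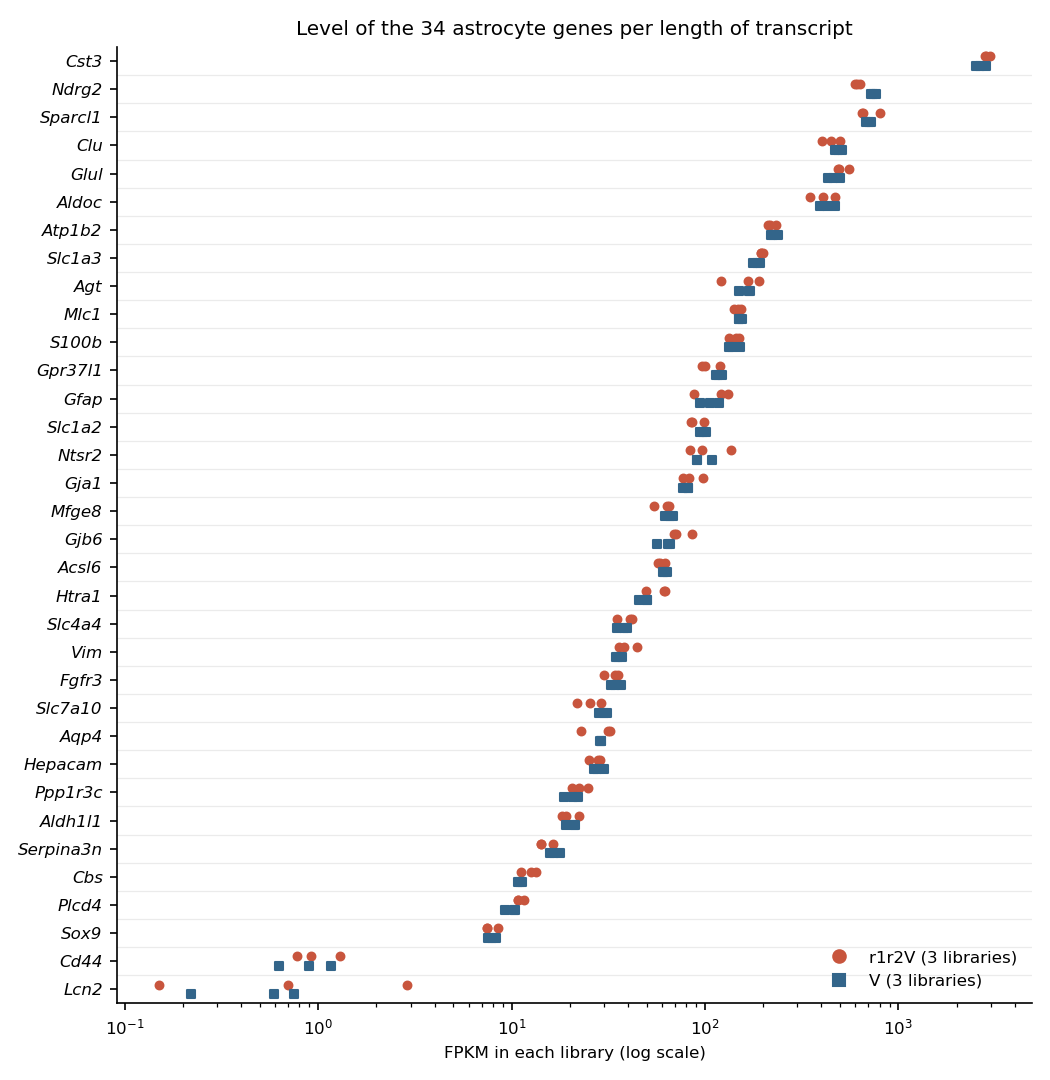
FPKM of each of the 34 astrocyte genes in every library, on a log scale, with r1r2V libraries as circles above V libraries as squares, ordered by the V mean. Cst3 stands highest, and Lcn2 spreads widest among the r1r2V libraries (0.15 to 2.88 FPKM). Ndrg2, Gjb6, Slc1a3 and Plcd4 show separate groups.

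Of the glutamate genes, Glul had rank 5, Slc1a3 rank 8 and Slc1a2 rank 14 of the 34 members by FPKM in V. Slc1a3 encodes GLAST, a glutamate transporter of the astrocyte membrane. It had 794, 826 and 813 CPM in r1r2V libraries, against 732, 789.6 and 764 CPM in V libraries. The groups did not overlap, but the highest V library lay just under the lowest r1r2V library, and the gene did not pass (log2 fold change 0.09, standard error 0.06, adjusted p = 0.714). Slc1a2 encodes GLT-1, the transporter that clears most glutamate in the forebrain. It had 910.3, 936 and 1084 CPM in r1r2V libraries, against 1026, 1058 and 1106 CPM in V libraries. Replicates 1 and 4 of r1r2V lay under all V libraries, while replicate 5 lay among them (log2 fold change -0.12, adjusted p = 0.706). Glul, which encodes the glutamine synthetase that converts the transported glutamate, had 1329, 1336 and 1533 CPM in r1r2V and 1186, 1249 and 1353 CPM in V. The groups overlapped through the highest V library (log2 fold change 0.15, adjusted p = 0.676).

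None of the 3 members of ion and amino acid transport passed the test. Atp1b2, a beta subunit of the sodium pump, averaged 632 ± 31.6 CPM in r1r2V and 649 ± 26.4 CPM in V (SD, n = 3 each). Slc4a4, a sodium bicarbonate cotransporter, averaged 288 ± 29.2 CPM in r1r2V and 273 ± 14.4 CPM in V (SD, n = 3 each). Slc7a10 encodes a transporter of D-serine, glycine and other small neutral amino acids. It had 47.2, 41.0 and 54.6 CPM in r1r2V, against 56.3, 52.5 and 57.8 CPM in V, so 2 of the 3 r1r2V libraries lay under all V libraries (log2 fold change -0.22, adjusted p = 0.655).

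The connexins form the gap junctions that join astrocytes into a network. Gjb6 (gene 14623; chromosome 14, 57123301 to 57133611, minus strand, GRCm38) had 143, 141 and 175 CPM in r1r2V, against 115, 130.1 and 133 CPM in V. All 3 r1r2V libraries lay above all 3 V libraries, with replicate 5 of r1r2V farthest out. The fitted ratio was 1.22-fold (log2 fold change 0.28, standard error 0.10, 95% interval 0.07 to 0.50), and the adjusted p of 0.521 did not pass. Without r1r2V replicate 5 the log2 fold change was 0.17. Gja1, the other astrocyte connexin, had 229.7, 250.5 and 295 CPM in r1r2V, against 232, 244 and 245 CPM in V. Its groups overlapped, and its log2 fold change of 0.11 (adjusted p = 0.775) was -0.00 without r1r2V replicate 5.

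The water channel gene Aqp4, which marks perivascular end-feet, had 114, 159 and 164 CPM in r1r2V, against 147, 144 and 142 CPM in V. The r1r2V libraries lay on both sides of the V libraries, which differed by a few CPM, and the log2 fold change was 0.01 (adjusted p = 0.983). Mlc1 encodes an end-foot membrane protein, and Hepacam the adhesion protein that binds it. Mlc1 averaged 336 ± 17.0 CPM in r1r2V and 343 ± 8.002 CPM in V (SD, n = 3 each). Hepacam averaged 82.1 ± 5.00 CPM in r1r2V and 84.5 ± 5.31 CPM in V (SD, n = 3 each).

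Among metabolic members, Cbs encodes cystathionine beta-synthase, which uses homocysteine to make cystathionine. It had 29.8, 26.9 and 32.2 CPM in r1r2V, against 25.8, 26.8 and 26.4 CPM in V. The groups did not overlap, although r1r2V replicate 4 lay close to the highest V library (log2 fold change 0.17, adjusted p = 0.662). In FPKM the groups overlapped, with 11.2 in r1r2V replicate 4 and 11.35 in V replicate 3. Aldoc, the glycolytic aldolase of astrocytes, had 1048, 907 and 1220.2 CPM in r1r2V and 1017, 1094 and 1214 CPM in V, with r1r2V libraries at both ends of the range. Aldh1l1, a folate enzyme used as a pan-astrocyte marker, averaged 59.7 ± 6.58 CPM in r1r2V and 61.0 ± 2.91 CPM in V (SD, n = 3 each). Acsl6, which activates long-chain fatty acids, had a log2 fold change of -0.06. Ppp1r3c, which directs a phosphatase to glycogen, had one of 0.15 (edgeR adjusted p = 0.822 and 0.718).

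Of the receptor, signalling and transcription members, Ndrg2 stood apart from V by the smallest p. It encodes a cytoplasmic protein of the N-myc downstream-regulated family that is abundant in astrocytes. Ndrg2 (gene 29811; chromosome 14, 51905271 to 51914004, minus strand, GRCm38) had 1192, 1249.6 and 1293 CPM in r1r2V, against 1467, 1488 and 1554 CPM in V. All r1r2V libraries lay under all V libraries, with a gap wider than the range of either group. The fitted ratio was 0.83-fold (log2 fold change -0.27, standard error 0.06, 95% interval -0.40 to -0.14). The adjusted p was 0.129 with edgeR and 0.00584 with DESeq2, and it ran from 0.00584 to 0.683 over the 12 alternatives, of which DESeq2 alone called it. Leaving out any 1 library kept the log2 fold change between -0.30 and -0.24.

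Plcd4, a phospholipase C gene, had 30.3, 29.0 and 28.9 CPM in r1r2V, against 24.7, 27.2 and 27.6 CPM in V. The groups did not overlap (log2 fold change 0.15, adjusted p = 0.668). Its annotated exons share 2101 bases with Zfp142 on the other strand, and the sources used here do not say whether counting used strand, so reads of the pair cannot be told apart there. Zfp142 had a log2 fold change of 0.07. Slc7a10 shares 377 exon bases with Lrp3 and Glul 116 with Teddm2 in the same way. Gpr37l1, an orphan G-protein-coupled receptor of astrocytes, had 215, 212 and 262 CPM in r1r2V and 247, 253 and 266 CPM in V. Only r1r2V replicate 5 lay within the V range (log2 fold change -0.15, adjusted p = 0.687). Ntsr2, a neurotensin receptor, had 138, 123 and 198 CPM in r1r2V and 132, 130.4 and 158 CPM in V, and r1r2V replicate 5 was the highest library by a wide margin. Fgfr3, a receptor of fibroblast growth factors, and Sox9 had log2 fold changes of -0.05 and -0.01.

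**Figure D2:**
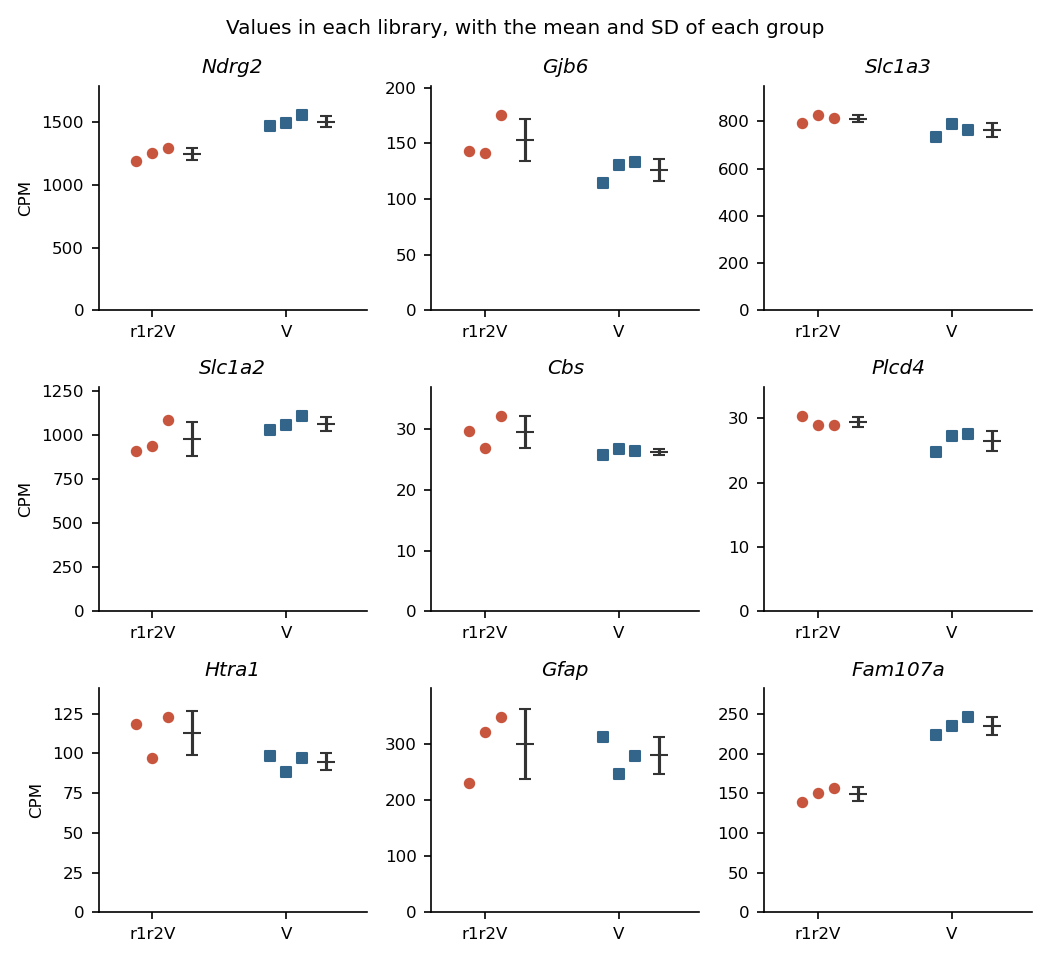
CPM in each library for 8 astrocyte members and Fam107a, with r1r2V left of V and the mean and SD of each group beside its points. Ndrg2 and Fam107a lie lower in every r1r2V library than in every V library. Gjb6, Slc1a3, Cbs and Plcd4 lie higher, and Slc1a2, Htra1 and Gfap overlap.

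The secreted members kept high levels in both groups. Htra1 encodes a serine protease of the extracellular matrix. It had 118, 97.3 and 123 CPM in r1r2V, against 98.1, 88.6 and 97.4 CPM in V. Replicate 4 of r1r2V fell within the V range, and the gene did not pass (1.19-fold, 95% interval of the log2 fold change 0.05 to 0.46, adjusted p = 0.574). Cst3 had 1979.9, 2052 and 2136 CPM in r1r2V, against 1800.3, 1869 and 2025 CPM in V, with overlap (log2 fold change 0.12, adjusted p = 0.683). Clu, the gene of the chaperone clusterin, had 769, 704 and 866 CPM in r1r2V and 845, 808 and 889 CPM in V. Agt, the precursor of angiotensin, had 289, 216 and 336 CPM in r1r2V and 265, 296 and 301 CPM in V, so the r1r2V libraries held both its lowest and its highest value. Sparcl1, a synapse-promoting matrix protein, had a log2 fold change of 0.00. S100b, a calcium-binding protein, had one of 0.02 and Mfge8, a bridging protein of phagocytosis, one of -0.10.

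Filament and reactive genes, which rise when astrocytes respond to injury, also showed no call. Gfap, the intermediate filament gene, had 229, 321 and 347 CPM in r1r2V, against 312, 246 and 279 CPM in V. The r1r2V libraries again spanned the V libraries, and the log2 fold change of 0.10 (95% interval -0.21 to 0.41, adjusted p = 0.868) was -0.02 without r1r2V replicate 5. Vim, a second filament gene that vessel and ependymal cells also express, averaged 68.7 ± 6.73 CPM in r1r2V and 62.3 ± 2.55 CPM in V (SD, n = 3 each). Serpina3n, a serpin of reactive astrocytes that oligodendrocytes can also express, averaged 29.7 ± 2.84 CPM in r1r2V and 33.1 ± 1.85 CPM in V (SD, n = 3 each). Cd44 stood at 4.33 ± 1.203 CPM in r1r2V and 3.86 ± 1.153 CPM in V (SD, n = 3 each). Lcn2 had 37, 2 and 9 counts in the r1r2V libraries and 3, 10 and 7 counts in the V libraries, so a single r1r2V library held most of its reads.

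**Figure D3:**
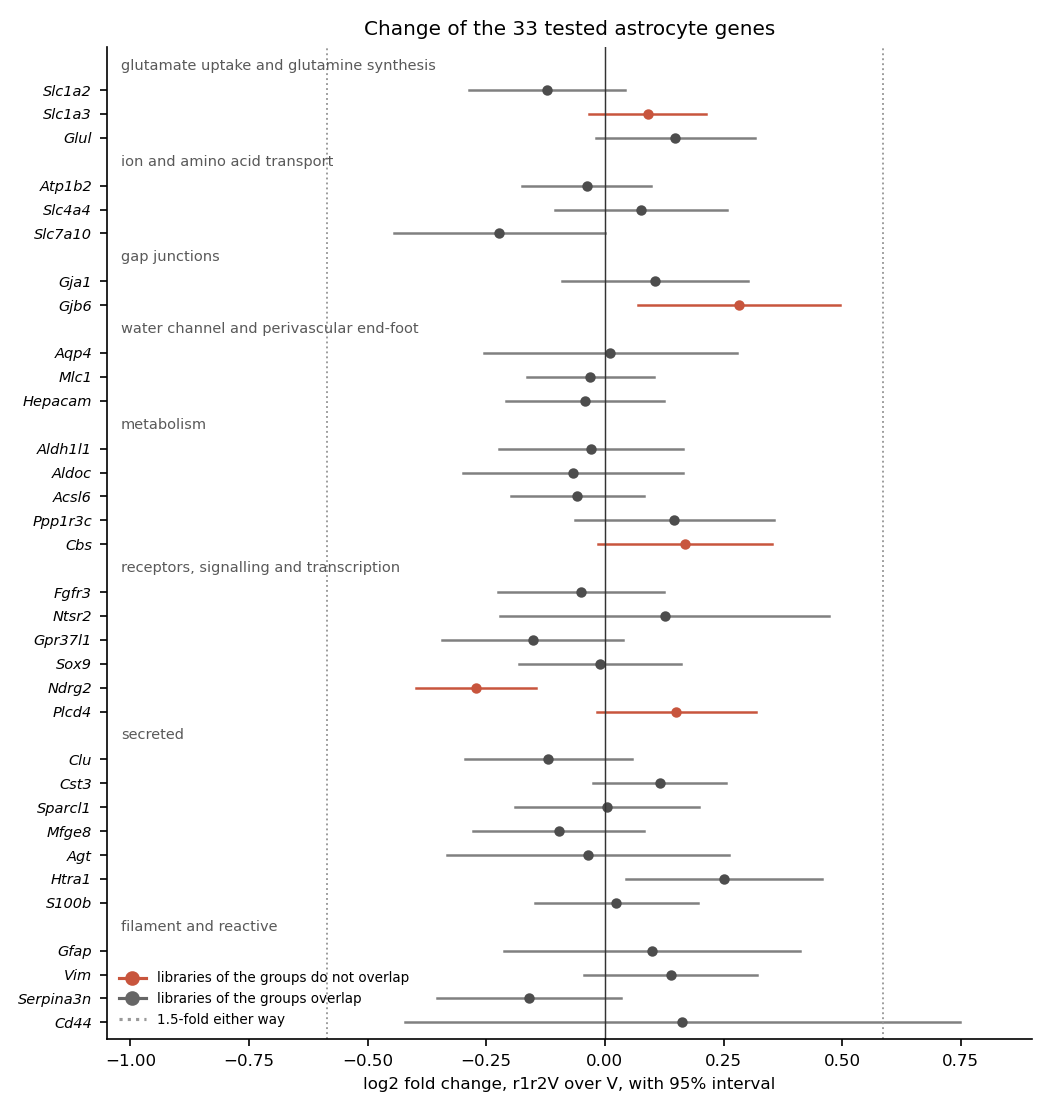
Log2 fold change of r1r2V over V with its 95% interval for the 33 tested astrocyte genes, grouped by role, with dotted lines at 1.5-fold either way. Colour marks the 5 genes whose groups do not overlap in CPM, and only the interval of Cd44 crosses a dotted line.

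In CPM, groups that did not overlap were found for 5 of the 33 astrocyte genes, against 14.5% of all genes tested. Slc1a3, Gjb6, Cbs and Plcd4 lay higher in every r1r2V library and Ndrg2 lower, where 6.87% and 7.63% of all genes tested did so. The members' share, 15.2%, was near that of all genes. Of the 3 members on chromosome 14, which also carries Nr1d2, 2 had groups that did not overlap, Ndrg2 and Gjb6. Of all 515 genes tested on that chromosome, 24.1% had groups that did not overlap and 5.44% passed the test. Ndrg2 starts 33.7 Mb and Gjb6 38.9 Mb beyond Nr1d2, and Clu, whose groups overlapped, 47.8 Mb. The part of chromosomal position in these values was not tested.

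The libraries of a group differed in their summed astrocyte level, a measure that includes genes not specific to astrocytes. The summed level of the 34 genes was 13706, 13803 and 15749 CPM in r1r2V, against 13983, 14333 and 15147 CPM in V. The r1r2V libraries thus held both the lowest and the highest sums. For 29 of 33 genes the SD was larger in r1r2V, against 71.6% of all genes tested. The median coefficient of variation of the 33 genes was 9.80% in r1r2V and 5.27% in V. Over all genes tested it was 9.41% in r1r2V and 5.74% in V. The sets were not matched for level, and the median level of the 33 genes was higher (153 against 27.8 CPM). Replicate 5 of r1r2V was the highest of all 6 libraries for 15 of the 33 genes and the lowest for 0, and V replicate 4 was the highest for 11. Over all genes tested, r1r2V replicate 5 was highest for 16.7% and V replicate 4 for 16.2%. Replicates 1 and 4 of r1r2V were lowest for 12 and 11 of the 33 genes, and for 18.6% and 24.8% of all genes tested. The median deviation of the 33 genes from the V mean was -0.08, -0.02 and 0.13 (log2) in r1r2V replicates 1, 4 and 5, and -0.05, -0.01 and 0.05 in V replicates 2, 3 and 4.

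**Figure D4:**
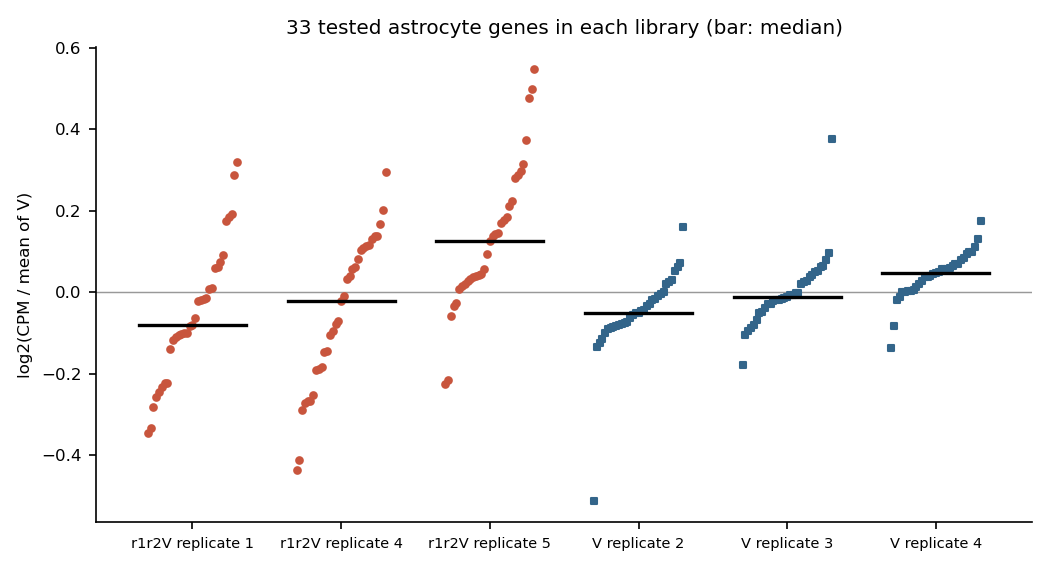
Each point is 1 of the 33 tested astrocyte genes in a library, as log2 of its CPM over the mean of the V libraries, sorted within the library, with a bar at the median. Most genes of r1r2V replicate 5 lie above 0, with a median of 0.13, while the medians of r1r2V replicates 1 and 4 are -0.08 and -0.02.

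Markers of other cells moved along with some of these library differences, and their part in the astrocyte values was not tested. Summed markers of meningeal fibroblasts (7 genes) were 84.7, 95.5 and 206 CPM in r1r2V, highest in the replicate with the highest astrocyte sum, against 99.99, 121 and 87.4 CPM in V, lowest in the replicate with the highest astrocyte sum. Of the 7 genes, 7 had a positive log2 fold change (median 0.44) and 0 were called, but without r1r2V replicate 5 only 4 were positive (median 0.10). Without r1r2V replicate 1, edgeR called 1 of the 7. Oligodendrocyte markers (10 genes) summed to 5447, 5896 and 7028 CPM in r1r2V and 5728, 5577 and 7759 CPM in V, so the library with the highest sum in each group was also the one with the highest astrocyte sum. Neuronal markers (10 genes) summed to 5207, 5109 and 5808 CPM in r1r2V and 5516, 5471 and 5671 CPM in V. Their highest sum in each group also fell in the library with the highest astrocyte sum. Sums of microglia markers (11 genes) ran from 418 to 484 CPM in r1r2V and from 412 to 438 CPM in V. They were highest in r1r2V replicate 5 and in V replicate 2, which was not the V library with the highest astrocyte sum. Of these markers, 11 of 11 were positive (median 0.11), or 9 to 11 on leaving out 1 library, and 0 were called. Over all genes tested, 7578 of 14438 were positive. Endothelial sums (10 genes) ran from 279 to 347 CPM in r1r2V and from 309 to 321 CPM in V, and mural sums (9 genes) from 207 to 268 CPM and from 232 to 236 CPM in the same order. Both were highest in r1r2V replicate 5 and in V replicate 3, while the highest astrocyte sum of V was in replicate 4.

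Ependymal markers (7 genes) summed to 155 to 162 CPM in r1r2V and 161 to 186 CPM in V. Their highest sums fell in r1r2V replicate 4 and V replicate 3, neither of them the library with the highest astrocyte sum of its group. Over all genes tested, 6860 of 14438 had a negative log2 fold change. Of the ependymal markers, 7 of 7 were negative (median -0.08), or 5 to 7 on leaving out 1 library, and 0 were called. Those of tanycytes, the radial glia of the ventricle floor, summed to 63.7, 57.5 and 60.9 CPM in r1r2V and 39.2, 50.5 and 43.1 CPM in V. That list held 4 tested genes and 1 call, Cd59a, which was higher in r1r2V (41.5 CPM against 26.9 CPM on average, edgeR adjusted p = 0.00374) and supplied most of the sum. Rax, a defining tanycyte factor, was near 0, at 0.33 CPM in r1r2V and 0.55 CPM in V on average, and failed the filter. Fndc3c1, another of the list, was at 0 in V replicate 4. Precursors of oligodendrocytes (6 genes) ran from 256 to 307 CPM in r1r2V and from 255 to 278 CPM in V. The top of each range was the library with the highest astrocyte sum of its group. Choroid plexus markers (6 genes) ran from 31.6 to 50.6 CPM in r1r2V and from 30.5 to 40.6 CPM in V, and red cell markers (5 genes) from 164 to 243 CPM and from 141 to 240.2 CPM in the same order. Choroid plexus sums were highest in r1r2V replicate 4 and V replicate 2, and red cell sums in r1r2V replicate 1 and V replicate 3. None of these libraries had the highest astrocyte sum of its group.

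**Figure D5:**
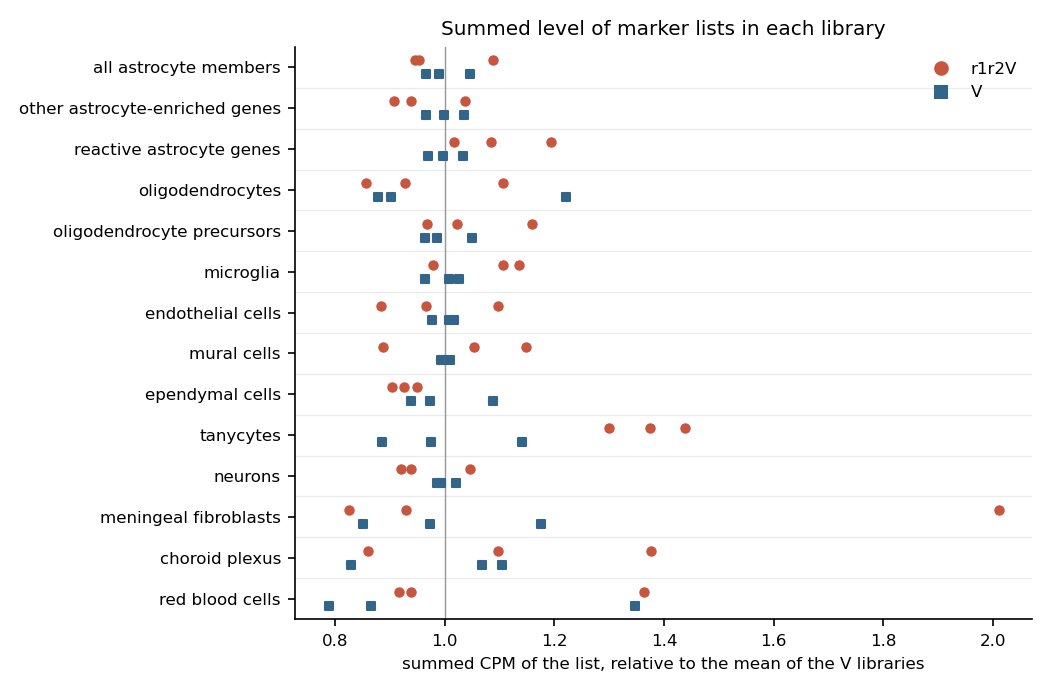
Summed CPM of each marker list in every library relative to the mean of the V libraries, with r1r2V circles above V squares. The astrocyte members lie between 0.95 and 1.09 in all 6 libraries, the fibroblast sum of r1r2V replicate 5 lies at 2.01, and the tanycyte sums do not overlap.

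A further 111 genes tied to astrocytes were taken as 6 lists, of which 104 genes were tested, 0 passed as higher (0.298% of all genes tested) and 1 as lower (0.118%). The call was Fam107a, which encodes an actin-binding protein enriched in astrocytes and was already known to differ when the list was drawn up. It had 139, 150.3 and 157 CPM in r1r2V, against 223, 235 and 246 CPM in V. The groups were far apart, at a ratio of 0.63-fold (log2 fold change -0.66, standard error 0.07, adjusted p = 0.00187), and the call held in all 12 alternatives. Fam107a lies on chromosome 14 from 8296270 to 8317607 (minus strand), 9.9 Mb before the start of Nr1d2. Of all 515 genes tested on that chromosome, 5.44% passed in either direction. The part of chromosomal position in this call was not tested. At an unadjusted p under 0.05 edgeR gave 8 higher (3.95% of all genes tested) and 4 lower (3.63%), and DESeq2 called 1 higher, Fbln5. The median of the 104 genes was -0.005 (log2).

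Among the 30 other astrocyte-enriched genes, 29 did not pass and the list median was -0.05. Apoe, the main lipid carrier made by astrocytes, had a log2 fold change of -0.10, and Kcnj10, the potassium channel of astrocytes, one of -0.06. Slc6a11, a GABA transporter of astrocytes, had -0.09. At an unadjusted p under 0.05, further genes of the 6 lists were Maob, Ptprz1, Pfkfb3, Rfx4, Cp, Fkbp5, Amigo2 and Fbln5 on the higher side and Slc38a3, Slc2a1 and H2-T23 on the lower. These were chosen after their values were seen, and none passed over all genes. Slc2a1, the glucose transporter of vessels and end-feet, had 141, 132 and 149 CPM in r1r2V, against 150.5, 164 and 178 CPM in V (log2 fold change -0.23, adjusted p = 0.536). Pfkfb3, which drives glycolysis, had 45.3, 47.7 and 47.7 CPM in r1r2V, against 40.6, 40.6 and 35.5 CPM in V (log2 fold change 0.27, adjusted p = 0.352). In both genes the groups did not overlap, as in 14 of the 104 tested genes of the 6 lists (13.5%). That share was near the 14.5% of all genes tested. The 12 genes of glycogen and lactate metabolism had a median of -0.05 with 0 called.

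The 12 genes of glutamate and glutamine handling, the 14 of glial lineage and Notch signalling and the 12 of secreted and matrix proteins had medians of -0.02, 0.02 and -0.01, with 0 called in each. Slc38a3, which exports glutamine from astrocytes, had 53.1, 55.6 and 60.6 CPM in r1r2V, against 64.2, 62.5 and 67.9 CPM in V (log2 fold change -0.20, adjusted p = 0.574). Of the 31 further reactive genes, 24 were tested, 0 passed and 18 were positive, with a median of 0.13. Over all genes tested, 7578 of 14438 were positive. The count of positive genes in this list was not computed with 1 library left out. The part of other cells in these values was not tested. Fbln5, an elastic-fibre protein that fibroblasts and vessels also make, had 44.7, 33.5 and 29.6 CPM in r1r2V, against 19.4, 24.8 and 20.8 CPM in V. Its log2 fold change was 0.73. It missed the threshold with edgeR (adjusted p = 0.117) but passed with DESeq2 (adjusted p = 0.00038) and without r1r2V replicate 5 (adjusted p = 0.0355), with adjusted p up to 0.56 over the alternatives.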

How the data were processed

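Each deposited table gives, per the file headers, an expected count and an FPKM per gene for 1 library of SCN RNA. The expected counts deposited by the authors are estimated reads, of which 9.89% were not whole (beyond a tolerance of 1e-06). The FPKM values deposited by the authors are scaled by transcript length and library size. Per the submitters' processing notes the build was mm10, and the tools named are RSEM 1.2.12, Bowtie2 2.2.5, DESeq2, GATK, StringTie 1.0.4, HISAT2 2.0.4 and Cufflinks 2.2.1, whose roles the sources used here do not give. A gene not listed in a library was taken as 0.

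Counts were rounded, filtered with filterByExpr (minimum count 10), scaled by trimmed mean of M-values and tested with the quasi-likelihood test of edgeR 4.0.16 in R 4.3.3, r1r2V over V, with Benjamini-Hochberg adjustment over 14438 genes and an adjusted p of 0.05 as the threshold. CPM uses the scaled library sizes. The script was tested on simulated data. Intervals are 95% and cover the model's error only. Alternatives were DESeq2 1.42.0, relative log expression scaling, no filter, limma 3.58.1 on log2(FPKM + 1) and log2(FPKM + 0.1), a filter on FPKM of at least 1 in 3 libraries, and leaving out each library.

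The members, lists and tests were chosen with earlier results of these data known. All members are named. Of the further lists, the text names called genes, and any others were picked with their values in view. Positions are those of RefSeq (GRCm38.p6) and overlaps those of GENCODE M21. With BLAST 2.17.0, 0 members had a near-identical copy among 17460 genes of the files (95% identity over 0.5 of the shorter transcript). No 2 libraries of a group matched within sampling noise, as a library deposited again would (chi-square per degree of freedom 3.85 to 13.5). Each was taken as 1 sample from its title.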

Additional observations from a re-analysis of the deposited data

How the results depend on the processing

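No paired analysis was possible because replicate number 4 is the only number found in both groups. With DESeq2, 69 genes were called higher and 40 lower over all genes, 1 astrocyte member lower (Ndrg2) and 1 further reactive gene higher (Fbln5). Leaving out 1 library gave 19 to 52 genes higher and 7 to 24 lower, 0 astrocyte members in either direction, and 0 to 1 further reactive genes higher. It gave a median of the members between -0.08 and 0.06 on the log2 scale. Without V replicate 2, 3 or 4 the counts over all genes were 20 and 7, 20 and 8, and 19 and 7. Of 395 member values under the 12 alternatives, 364 kept direction and side of the threshold, 1 (Ndrg2 with DESeq2) newly passed and 30 changed sign, in 14 genes. On FPKM, Aqp4 was -0.014 with a pseudocount of 1, with or without the filter, and -0.015 with 0.1, and Sparcl1 was -0.0092 in all 3 fits. Without 1 library, log2 fold changes ran from -0.19 to 0.12 (Agt), -0.13 to 0.024 (Aldh1l1), -0.19 to 0.033 (Aldoc), -0.087 to 0.16 (Aqp4), -0.080 to 0.40 (Cd44), -0.11 to 0.014 (Fgfr3), -0.024 to 0.26 (Gfap) and -0.0042 to 0.18 (Gja1). They ran from -0.078 to 0.0076 (Hepacam), -0.069 to 0.0075 (Mlc1), -0.11 to 0.26 (Ntsr2), -0.020 to 0.084 (S100b), -0.064 to 0.021 (Sox9) and -0.11 to 0.062 (Sparcl1). The cause was not tested. The number of libraries and the spread among those of r1r2V limit the intervals, and depth was not varied.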

Other observations

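Ratios within gene families, in FPKM of each library, were looked at after the values of the members were seen and carry no test. The ratio of Slc1a2 to Slc1a3, the glutamate transporter genes, was 0.434, 0.430 and 0.503 in r1r2V, against 0.531, 0.507 and 0.548 in V. Every r1r2V library had the lower ratio, although r1r2V replicate 5 lay just under V replicate 3. The ratio of Gja1 to Gjb6, the connexin genes, was 1.09, 1.196 and 1.14 in r1r2V, against 1.37, 1.26 and 1.24 in V, again without overlap. Slc1a3 and Gjb6 were themselves among the members whose groups did not overlap in CPM, as held for 14.5% of all genes tested. How often ratios of other gene pairs overlap was not computed. The ratio of Gfap to Vim, the filament genes, was 1.99, 3.16 and 3.63 in r1r2V, against 3.16, 2.71 and 2.98 in V, and the groups overlapped.

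The 12 secreted and matrix genes summed to 2810.0, 2292 and 3424 CPM in r1r2V, against 3093, 3097 and 3100.1 CPM in V. Sparc, a secreted matrix glycoprotein, supplied most of each sum, at 1874, 1392 and 2407 CPM in r1r2V and 2111, 2123 and 2066 CPM in V (log2 fold change -0.15, edgeR adjusted p = 0.81).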
